A study of Homo sapiens with 4 samples.

Results

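The genes described here encode parts of ubiquitin ligases known to mark SETD8 for destruction, and PCNA, on which SETD8 meets a ligase of this set. They are the 10 genes DTL, DDB1, CUL4A, CUL4B, PCNA, SKP2, CUL1, SKP1, RBX1 and FZR1, and every peak of the mark H4K20me1 that the authors' annotation gave to one of them was taken, unless it was called distal intergenic. This rule found 20 of 25514 peaks, at 9 of the 10 genes. CUL4B had none, and no row of a member was lost as distal intergenic. Kasumi-1, an acute myeloid leukemia line with the t(8;21) translocation, was profiled in 4 libraries of 100000 cells each. Of these, 2 came from cells with a non-targeting guide (sgNT and sgNT#2, genotype given as WT) and 2 from cells given CRISPR/Cas9 against SETD8, with the genotype SETD8 knockout (sgSETD8 and sgSETD8 #2). All were grown in RPMI 1640 medium with fetal bovine serum, streptomycin and penicillin. Whether the number 2 marks another guide or a repeat, and whether the knockout cells were a clone or a pool and the libraries separate cultures, is not given in the sources used here.

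SETD8, now called KMT5A, is the enzyme that places a single methyl group on lysine 20 of histone H4. Its level swings over the cell cycle because ubiquitin ligases send it to the proteasome. In S phase and after DNA damage, SETD8 bound to PCNA on chromatin is recognised by DTL (also called CDT2), the substrate receptor of a cullin 4 ligase. DDB1 is the adaptor of that ligase, CUL4A or CUL4B its scaffold and RBX1 its RING subunit. A cullin 1 ligase with the adaptor SKP1 and the F-box receptor SKP2 has also been linked to SETD8 turnover. FZR1 (CDH1), which activates the anaphase-promoting complex in late mitosis and G1, has been tied to SETD8 removal as well. H4K20me1 itself is known for covering promoters and bodies of transcribed genes. The comparison therefore shows the enzyme's mark on genes whose products take part in removing the enzyme, and it measures neither their RNA nor their protein.

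The deposited table gave 1 value per group and peak, so the spread between libraries could not be seen and no test of the conditions was made beyond the p-values of the authors' deposited table. Whether a value draws on 1 or both libraries of its group is not given in the sources used here. Those p-values may therefore hold no spread between libraries. The headers name no group, and the values are called first-listed and second-listed below. The comparison is named treated against control, and if the columns follow that order the first-listed group is the knockout. Whole reads recovered from the log2 values numbered 2791207 in peaks of the first-listed and 2682916 in those of the second-listed group. Each ratio below is the log2 ratio of first-listed to second-listed reads after the authors' scaling, with an exact Clopper-Pearson 95% interval that covers counting error only. A lower value cannot tell fewer marked cells from less mark per cell, and with no spike-in used here a change of equal size at all peaks would not show. Of 12 marker genes of myeloid progenitors and of this leukemia, 8 carried a peak, KIT, CD34, RUNX1 and RUNX1T1 among them. MPO, CD33, TAL1 and CEBPA carried none. A peak was also found at 1 of 8 lymphoid, 0 of 3 muscle, 2 of 4 liver, 2 of 4 epithelial and 1 of 5 erythroid markers. Of all protein-coding genes, 38.8% had a peak outside distal intergenic rows.

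Peaks lay over some of the starts of these genes and not over others, and sequences before 5 starts are printed to show which regulatory letters lie under the mark. They come from RefSeq (GRCh38.p14, the same primary build as the files' hg38), in which all 10 genes were found, and were shortened where another gene or transcript begins. The sequences of SKP2, SKP1 and the downstream PCNA start stop short of the starts themselves (36152111, 134176950 and 5119958). Capitals mark matches on either strand to the E2F sites TTTGGCGC and TTTCCCGC, the CCAAT box CCAAT, the GC box GGGCGG and the cell cycle element TTTGAA.
DTL, chr1:212035558-212035747, plus strand, all 190 bases inside a peak: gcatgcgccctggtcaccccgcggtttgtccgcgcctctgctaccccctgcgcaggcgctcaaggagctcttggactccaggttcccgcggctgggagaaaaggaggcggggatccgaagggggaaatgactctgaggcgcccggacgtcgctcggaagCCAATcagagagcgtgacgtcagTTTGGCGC
PCNA downstream start, chr20:5120027-5120208, minus strand, all 182 bases inside a peak: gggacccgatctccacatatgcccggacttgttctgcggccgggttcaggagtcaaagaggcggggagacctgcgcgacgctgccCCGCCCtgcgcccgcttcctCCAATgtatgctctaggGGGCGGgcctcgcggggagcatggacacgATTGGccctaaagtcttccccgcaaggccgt
PCNA upstream start, chr20:5126623-5126872, minus strand, 0 of 250 bases inside a peak: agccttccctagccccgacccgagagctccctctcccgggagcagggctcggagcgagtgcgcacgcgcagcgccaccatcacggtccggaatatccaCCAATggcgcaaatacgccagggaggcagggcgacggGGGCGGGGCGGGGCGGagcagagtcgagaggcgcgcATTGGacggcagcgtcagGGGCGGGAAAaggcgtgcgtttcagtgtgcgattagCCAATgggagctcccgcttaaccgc
SKP2, chr5:36151888-36151988, plus strand, all 101 bases inside a peak: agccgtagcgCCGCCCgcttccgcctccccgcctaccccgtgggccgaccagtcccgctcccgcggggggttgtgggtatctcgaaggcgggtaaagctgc
SKP1, chr5:134177039-134177200, minus strand, all 162 bases inside a peak: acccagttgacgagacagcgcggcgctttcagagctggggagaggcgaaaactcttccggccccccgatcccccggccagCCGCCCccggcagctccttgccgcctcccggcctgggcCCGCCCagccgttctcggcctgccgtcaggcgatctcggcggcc
RefSeq lists 22 start windows for the 10 genes, each of the 250 bases before a start, and a pair of CUL4A windows overlap. A peak touched 6 of these windows (27.3%), beside 14.6% of all 35116 RefSeq start windows. An E2F match stood in 3 of the 22, at DTL, the upstream start of PCNA and 1 start of CUL4A, against 1.93% of all windows. The match at PCNA overlaps a GC box. CCAAT boxes were found in 7 windows (32.0% of all windows) and GC boxes in 11 (42.6%). TTTGAA was found in 2, at CUL4B and FZR1 (13.3%). The DTL window is the only one of the 3 with an E2F match that lay inside a peak.

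Over the 20 peaks the groups differed little. The median log2 fold change in the authors' deposited table was 0.12, beside 0.06 over all peaks, and the values ran from −0.94 at DTL to 0.62 at SKP1. Of the 20 peaks, 12 were above 0 and 8 below, where 58.2% and 40.9% of all peaks were. A difference of 1 on the log2 scale, up or down, was reached by 0 of the 20 and by 2.46% of all peaks (1.55% with more and 0.909% with less signal in the first-listed group). The lowest DTL value became −1.05 once both columns were brought to equal reads in peaks. A difference of 1.5 fold was reached by 2 member peaks, that of DTL and the highest of SKP1, beside 15.5% of all peaks. The authors' deposited table, from DESeq per the submitters' processing notes, gave no member an adjusted p below 0.05, and 0% of all peaks. Its unadjusted p was below 0.05 for 1 member peak, that of DTL, beside 5.06% of all peaks (1.69% lower and 3.37% higher in the first-listed group). A count of 1 among 20 is near that background and is no result about these genes.

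**Figure D1:**
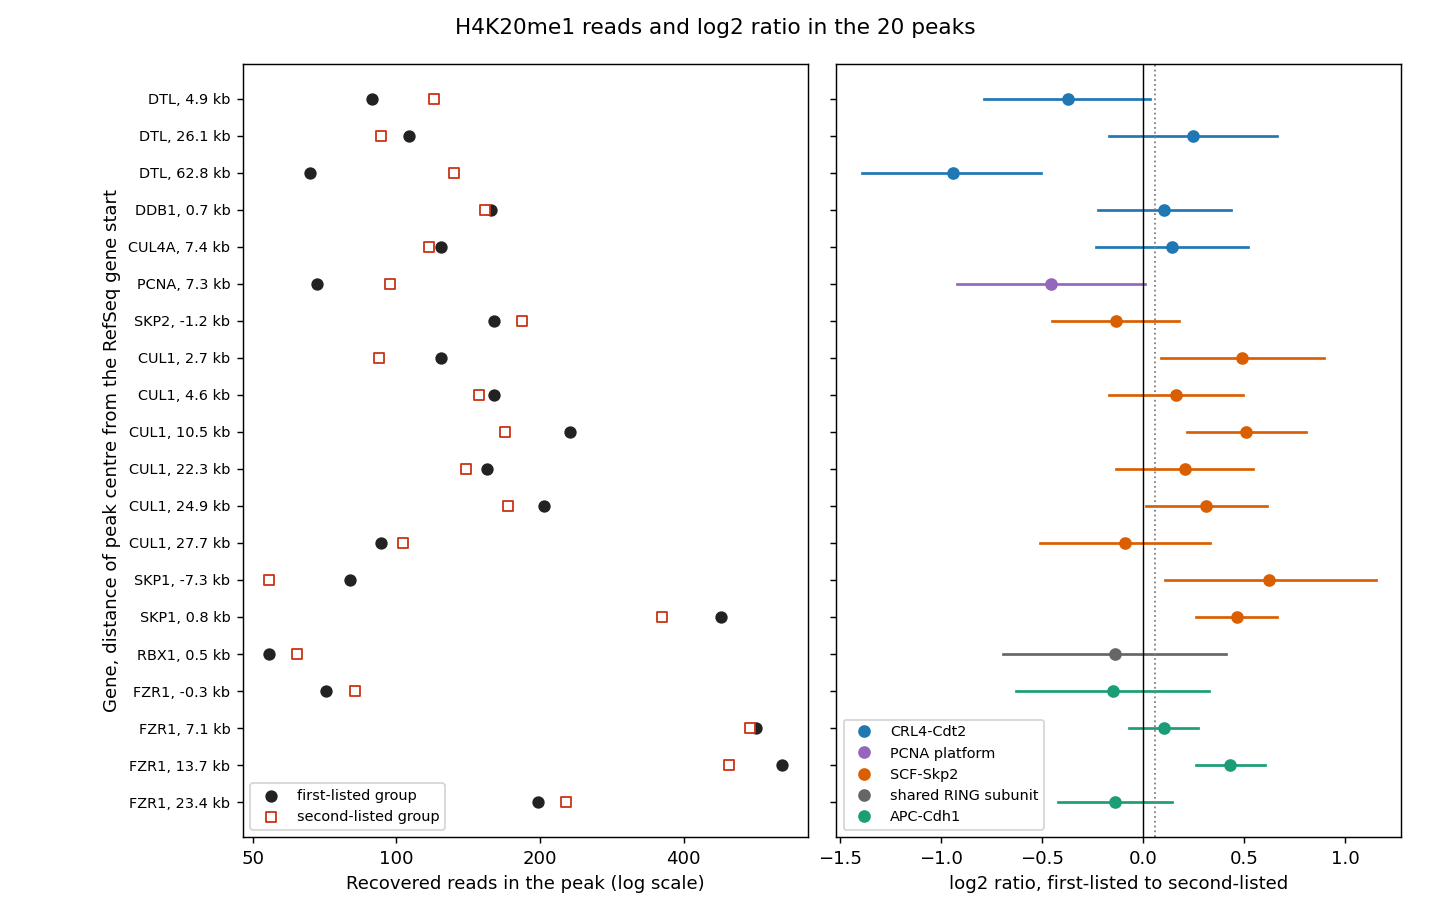
Left, recovered H4K20me1 reads in each of the 20 peaks (log axis) for the first-listed group (filled circles) and the second-listed group (open squares). Right, the log2 ratio of first-listed to second-listed reads with its exact 95% counting interval, coloured by complex, with a dotted line at the median of all peaks (0.06). The DTL peak at 62.8 kb has the lowest ratio (−0.94) and the SKP1 peak at −7.3 kb the highest (0.62).

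DTL, the receptor that recognises PCNA-bound SETD8, had the lowest value of the set and peaks that did not all go the same way. The gene spans chromosome 1, 212035748 to 212105013, on the plus strand. Its lowest peak (212097963 to 212099217) held 66 first-listed and 132 second-listed reads, a ratio of −0.94 (−1.39 to −0.51). Of all 25514 peaks, 1.07% had a lower fold change in the authors' deposited table, where this peak has an unadjusted p of 0.0216 and an adjusted p of 0.932. The annotation calls it a promoter at 1 to 2 kb because a short transcript begins that far downstream. By position it is centred 62.8 kb after the RefSeq start of DTL, at 90.7% of the gene's length, so it is a peak near the gene's end. A peak in intron 1 of 13, centred 4.95 kb after the start, held 89 and 120 reads (−0.37, −0.79 to 0.03). The peak over exon 5 of 14, at 26.1 kb, held 106 and 93 reads (0.25, −0.17 to 0.66) and was the one DTL peak above 0.

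The start of DTL itself was covered by a peak that the annotation gives to INTS7, a subunit of the Integrator complex that begins close by on the other strand. This shared promoter peak (chromosome 1, 212035190 to 212035961), which contains the printed CCAAT box and E2F match, held 72 and 110 reads, a ratio of −0.55 (−1.004 to −0.11). With it, 3 of the 4 peaks on DTL were below 0. Summed over the 3 annotated peaks, DTL held 261 and 345 reads (−0.35, −0.58 to −0.11), and over the 4 peaks by position 333 and 455 (−0.39, −0.60 to −0.19). Without the lowest peak the ratios were −0.07 (−0.36 to 0.22) and −0.22 (−0.46 to 0.02), so an interval clear of 0 rests on that single peak near the gene's end. The other 71 peaks within 5 Mb had a median fold change of 0.07, and 17 of them were lower than the DTL sum.

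DDB1, the adaptor that joins the receptor to cullin 4, showed near equal values. Its single peak (chromosome 11, 61331662 to 61333050) held 158 and 153 reads (0.10, −0.23 to 0.43) and ended 55 bp inside the gene's start at 61333105, toward the gene body. CUL4A, one of the alternative scaffolds, had 1 peak in intron 2 of 19 (chromosome 13, 113214934 to 113216254) with 124 and 117 reads (0.14, −0.24 to 0.52). None of the 4 RefSeq start windows of CUL4A touched a peak. CUL4B, the other scaffold, is on chromosome X, 120523858 to 120575532, and no peak lay in it. The nearest was 272 kb away, at ZBTB33. Chromosome X held 304 peaks, 1.19% of the table. A gene without a peak has no value in the table, so no level or limit can be given for it. The cullin 4 ligase with RBX1 thus had 6 peaks at 4 of 5 subunits. Their median fold change in the authors' deposited table was −0.02. Of the 6, 3 were above 0 and 3 below, beside 58.2% and 40.9% of all peaks.

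PCNA, the ring-shaped clamp that holds polymerases on DNA and serves as the platform on which SETD8 meets DTL, had 1 annotated peak, below 0. Its annotated peak (chromosome 20, 5118357 to 5120259) lies over the downstream start and held 68 and 97 reads, a ratio of −0.46 (−0.92 to 0.01). The peak nearest to its upstream start, given to the neighbour CDS2 on the other strand (5127002 to 5128399, 380 bp before the RefSeq gene start at 5126622), held 85 and 61 reads (0.54, 0.04 to 1.03). The sum of both was 153 and 158 reads, a ratio of 0.01 (−0.32 to 0.34), in place of −0.46 by the annotation. Of 71 other peaks within 5 Mb, whose median was 0.17, 2 had a lower fold change than the annotated PCNA peak. By position the CDS2 peak lies outside PCNA and over the start of CDS2. Whether the mark there also bears on PCNA cannot be read from the table.

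**Figure D2:**
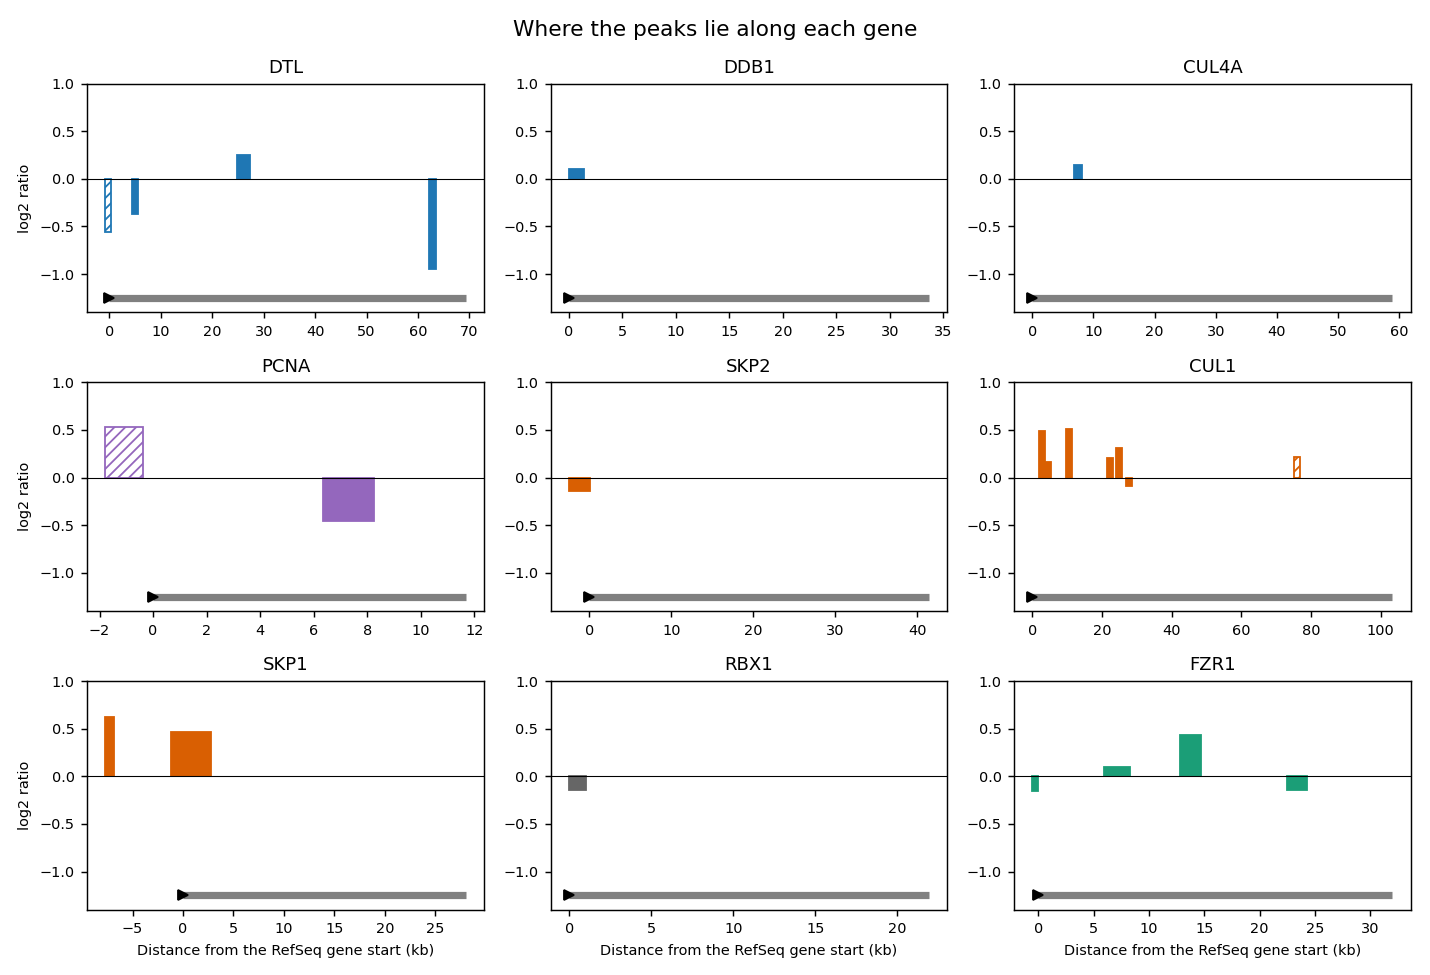
The log2 ratio of first-listed to second-listed reads of each peak (bar height) against its distance in kb from the RefSeq gene start, which the black arrowhead marks on the grey bar of the gene. Filled bars are peaks annotated to the gene, hatched bars are peaks found there by position and annotated to a neighbour (INTS7 at DTL, CDS2 at PCNA, EZH2 at CUL1), and narrow peaks are drawn wider than they are. The lowest DTL bar stands at 62.8 kb, close to the end of the gene.

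The subunits of the SCF-Skp2 ligase were on both sides of 0. SKP2, the F-box protein that selects the substrate, had 1 peak across its start (chromosome 5, 36149646 to 36152208) with 160 and 183 reads, a ratio of −0.14 (−0.45 to 0.18). That peak reaches to the other side, where LMBRD2 begins on the opposite strand, and 98 bases of it lie in SKP2 (0.24% of the gene). SKP1, the adaptor between F-box protein and cullin 1, had the widest of the 20 peaks, 3952 bp across its start (chromosome 5, 134174221 to 134178172). It held 478 and 361 reads (0.46, 0.26 to 0.66), with an unadjusted p of 0.189 in the authors' deposited table. The second peak given to SKP1 (134183773 to 134184630, 80 and 54 reads, 0.62, 0.11 to 1.15) lies in intron 1 of the neighbouring PPP2CA, outside SKP1. The higher first-listed reads at SKP1 stood beside a median of 0.18 over the 98 other peaks within 5 Mb, 79 of which were lower than the SKP1 sum of 0.48.

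CUL1, the scaffold of the SCF ligases, carried the most peaks of the set. All 6 were centred between 2.71 and 27.7 kb from the start of the 103 kb gene (chromosome 7, 148697756 to 148801110), and 5 of them were above 0. The densest of the 20 peaks was the CUL1 peak at 10.5 kb in intron 1 (148707960 to 148708604), with 304 scaled reads per kb as the mean of both groups, above 99.0% of all peaks. It held 231 and 169 reads (0.51, 0.22 to 0.80), with an unadjusted p of 0.171 in the authors' deposited table. The peak nearest to the start, at 2.71 kb, held 124 and 92 reads (0.49, 0.09 to 0.89), and that at 24.9 kb held 204 and 171 (0.31, 0.01 to 0.61). The remaining 3 ran from −0.09 to 0.20, with 93 to 160 reads in either group. A seventh peak, in intron 9 of 21 of CUL1 but annotated to EZH2, held 95 and 85 reads (0.22, −0.22 to 0.66). Summed over the 6 peaks, CUL1 gave 967 and 824 reads, a ratio of 0.29 (0.15 to 0.42), and over all 7 by position 0.28 (0.15 to 0.41). None of the 5 RefSeq start windows of CUL1 touched a peak, and its first peak began after the last of them.

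RBX1, the RING subunit that both cullin ligases share, had the lowest summed reads of the 9 genes with a peak. Its single peak (chromosome 22, 40951355 to 40952406) begins 23 bases before the start and held 54 and 62 reads, a ratio of −0.14 (−0.70 to 0.41). That interval holds both 0 and the DTL sum of −0.35, so at this depth the 2 cannot be told apart. Together, SKP2, CUL1, SKP1 and RBX1 had 10 peaks, with a median fold change of 0.25 in the authors' deposited table. Of the 10, 7 were above 0 and 3 below, beside 58.2% and 40.9% of all peaks. CUL1 alone gave 6 of them, and the highest, of SKP1, lies inside PPP2CA. Peaks of a gene share their source, so the count is no result about the complex.

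FZR1, the activator of the anaphase-promoting complex, was the most heavily marked member. Its 4 peaks on chromosome 19 held 1481 first-listed and 1357 second-listed reads, and peaks covered 18.7% of the gene (3506311 to 3538334), beside a median of 4.43% over the 8234 protein-coding genes with a peak in their span. The tallest, at 13.7 kb (3519107 to 3520993), held 644 and 497 reads, a ratio of 0.43 (0.26 to 0.60), and 99.1% of all peaks had less signal. In the authors' deposited table its unadjusted p is 0.204. It is labelled as a promoter at 1 to 2 kb for a downstream transcript, though it lies 42.9% of the way into the gene. The intron 1 peak at 7.13 kb was as strong (568 and 551 reads) with a ratio near 0 (0.10, −0.07 to 0.27). At 23.4 kb the ratio was −0.14 (198 and 227 reads, −0.42 to 0.14), and in the 290 bp peak that ends 129 bp before the start it was −0.15 (71 and 82 reads, −0.63 to 0.33). The sum over the gene was 0.18 (0.08 to 0.29), and 0.07 (−0.04 to 0.18) at equal reads in peaks, where its interval takes in 0.

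Per gene, ratios ran from −0.46 at PCNA to 0.48 at SKP1, in the order PCNA, DTL, RBX1, SKP2, DDB1, CUL4A, FZR1, CUL1 and SKP1. Neighbours in this order had overlapping counting intervals throughout. Those of DTL (−0.58 to −0.11) and PCNA (−0.92 to 0.01) did not overlap with those of FZR1 (0.08 to 0.29), CUL1 (0.15 to 0.42) and SKP1 (0.30 to 0.67). SKP1 also lay apart from SKP2 and, narrowly, from FZR1. By position, without the peak inside PPP2CA, the SKP1 interval (0.26 to 0.66) overlapped with that of FZR1. With reads halved, which allows for both ends of a fragment having been counted, DTL (−0.69 to −0.01) alone stayed apart from those 3 genes: PCNA (−1.12 to 0.22) overlapped with FZR1, CUL1 and SKP1, and SKP1 with SKP2 and FZR1. By position, which adds the CDS2 peak outside PCNA, PCNA (−0.32 to 0.34) overlapped with all 3 as well. Of the 9 genes, 4 were below 0, beside 38.2% of all 9038 genes with a peak, and 0 passed a ratio of 1 in size, beside 1.34%. Scaling to equal reads in peaks, which moves each ratio by −0.11, put 5 of 9 below 0, with DDB1 going from 0.10 to −0.01. The share of all genes below 0 under that scaling was not computed. The halved reads left the intervals of DTL, CUL1 (0.10 to 0.48), SKP1 (0.22 to 0.75) and FZR1 (0.03 to 0.34) on one side of 0. For DTL this rests on the peak at 62.8 kb, without which all reads gave −0.07 (−0.36 to 0.22). None of these intervals holds the spread between cultures or libraries. The share of all genes whose interval lies on one side of 0, or of gene pairs without overlap, was not computed. Without that share, these intervals are no result about the members. Genes with more reads have narrower intervals.

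**Figure D3:**
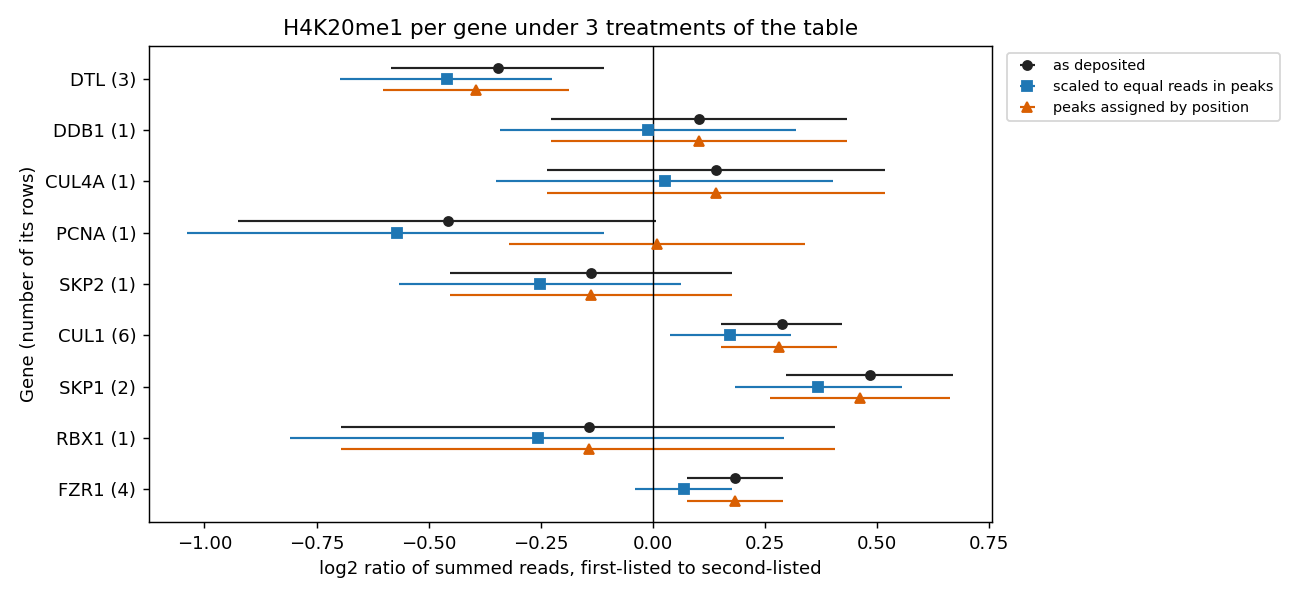
The log2 ratio of reads summed over each gene's peaks (first-listed to second-listed) with exact 95% counting intervals, as deposited (circles), scaled to equal reads in peaks (squares) and with peaks assigned by position (triangles). PCNA goes from −0.46 to 0.01 when the CDS2 peak, which lies outside PCNA before its upstream start, is added. DTL stays below 0 and CUL1 and SKP1 above 0 under each.

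Density and position varied among the genes. The median over the 20 peaks was 107 scaled reads per kb, beside 70.3 over all peaks, with a range from 41.3 over DTL exon 5 to 304 in CUL1. The 10 peaks of CUL1 and FZR1 carry that median: the other 10 had one of 76.9, and the single peaks of PCNA (42.3), SKP2 (65.5) and RBX1 (54.0) were below the median of all peaks. In 18 of the 20 the signal was at or above the median of the table, the exceptions being RBX1 and the SKP1 peak inside PPP2CA. Of the 20 peaks, 14 were centred in the first 50% of their gene, 6 of them in CUL1 alone, with 3 in the rest and 3 before the start. The same share over all peaks was not computed. The annotation named 11 of the 20 as promoter peaks. Of these 11, 5 had an edge within 1 kb of the outermost RefSeq start of the gene, and 3 covered it (SKP2, SKP1 and RBX1). Other RefSeq starts were not counted there. The PCNA peak covers the downstream start at 5119958, and the first CUL1 peak begins at 148699846, after a start at 148699710. These features are described without a test, since peaks of a gene share their source.

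**Figure D4:**
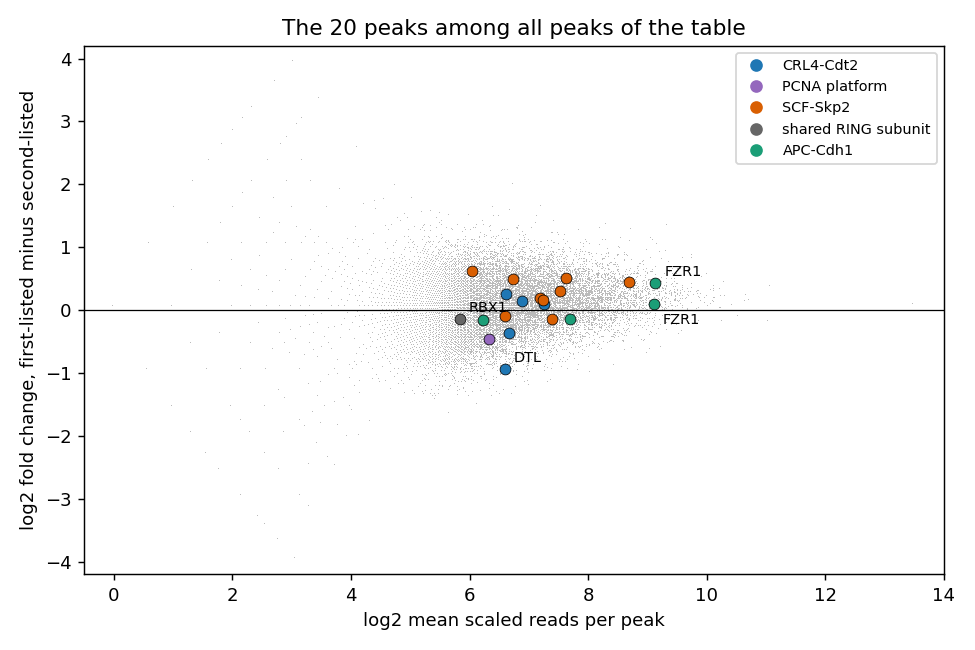
The log2 fold change (vertical axis, first-listed minus second-listed) against the log2 mean of scaled reads for all 25514 peaks of the deposited table (grey), with the 20 peaks coloured by complex. The 2 strongest FZR1 peaks stand at the right, RBX1 at the left, and the DTL peak at −0.94 is the lowest of the set.

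Related genes came from a list of 82 partners, targets and regulators of these ligases and of PCNA, many with no known part in SETD8 turnover, and 47 had a peak. Of these 28 were above 0 and 19 below, with a median ratio of 0.07, beside 0.09 over all genes with a peak, of which 61.8% were above 0 and 38.2% below. A ratio of 1 or more in size was found in 1 gene, ATAD5, beside 1.34% of all genes. The groups below hold 3 to 10 measured genes each, and their counts were not tested against those shares. No peak of the list passed an adjusted p of 0.05 in the authors' deposited table, and 4 of its 103 peaks had an unadjusted p under 0.05, beside 5.06% of all peaks.

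Genes that load PCNA or work on it had 5 of 6 measured members below 0, beside 38.2% of all genes, with a median of −0.17. ATAD5, which takes PCNA off DNA, was the lowest, with 35 and 80 reads at its promoter (chromosome 17, 30832006 to 30833249), a ratio of −1.14 (−1.75 to −0.55). The median of the 98 other peaks within 5 Mb of ATAD5 was −0.25. RFC2, a subunit of the clamp loader, was the highest at 0.06 (−0.51 to 0.63). Of the 6 listed targets of the DTL ligase, 4 had a peak. All 4 were above 0, beside 61.8% of all genes, with a median of 0.26. CDKN1A, the inhibitor p21, gave 0.98 (0.44 to 1.52, 87 and 46 reads) and TDG, a DNA glycosylase, 0.12 (−0.26 to 0.49). KMT5A itself, which the rule for naming genes does not name and which was chosen after its value was seen, gave 0.27 (0.08 to 0.46). CDT1, the licensing factor that is the ligase's best known target, had no peak.

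Partners and receptors of cullin 4 had 6 of 7 genes above 0 (median 0.09), from DCAF1 at −0.10 (−0.55 to 0.35) to ERCC8, the receptor of transcription-coupled repair, at 0.45 (−0.06 to 0.98). On the SCF side, 3 of 8 were above 0 (median −0.05). FBXW11, a paralog of BTRC, gave 0.73 (0.53 to 0.93) over 3 peaks with 541 and 339 reads, while FBXO11 gave −0.31 (−0.41 to −0.20) over 10 peaks, in a region of chromosome 2 with a median of −0.24. Subunits and regulators of the anaphase-promoting complex had 4 of 9 genes above 0 (median −0.01). The core subunit CDC27 was lowest at −0.48 (−0.66 to −0.30), in a region of chromosome 17 with a median of −0.20, and ANAPC13 highest at 0.65 (0.16 to 1.15). The highest genes of the groups had regional medians above 0: COPS4 0.23, FBXW11 0.20, ANAPC13 0.195, CDKN1A 0.19, CUL9 0.15, RFC2 0.06 and ERCC8 0.04. So had the other lowest genes: TDG 0.18, CUL3 0.18, DCAF1 0.16 and SENP8 0.06. The part of these regional values in the gene ratios was not tested.

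Cullins need the small modifier NEDD8 to be active, and the list of genes that attach or remove it, with the cullin exchange factors CAND1 and CAND2, had 7 of 10 measured members above 0 (median 0.17). Both exchange factors were among the 7, at 0.22 and 0.06. COPS4, a subunit of the COP9 signalosome that strips NEDD8 from cullins, gave 0.64 (0.26 to 1.03), and SENP8, the protease that matures NEDD8, −0.09 (−0.41 to 0.24). The other cullins with a peak were 3 of 5, all above 0, from CUL3 at 0.02 (−0.19 to 0.24) to CUL9 at 0.59 (0.07 to 1.12). With equal reads in peaks, 28 of the 47 listed genes were below 0 in place of 19, so the side of 0 depends on the scaling for many of them. The share of all genes below 0 under that scaling was not computed. The PCNA group then had 6 of 6 below 0 and the targets of the DTL ligase 4 of 4 above. TDG was above by a narrow margin, at 0.12 before the move of −0.11. Partners of cullin 4 went from 6 of 7 above 0 to 3, the other cullins from 3 of 3 to 1, the neddylation list from 7 of 10 to 6 and the anaphase-promoting complex from 4 of 9 to 2, while the SCF list had 3 of 8 under both.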

How the data were processed

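CUT&Tag for H4K20me1 gave 4 libraries of Kasumi-1, 2 per group. The tools cutadapt, Bowtie2 and DESeq and the build hg38 come from the list in the submitters' processing notes. How peaks were called, duplicates handled and libraries pooled is not given in the sources used here. The log2 values deposited by the authors are scaled reads per peak for each group, and the p-values are those of the authors' comparison. Headers name the columns by number, so meanings were settled from the values: the fold column equals first minus second within 0.01.

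Whole reads were recovered from the log2 columns. All low values lay within 0.0051 of a whole read, once a constant was taken off (0 for the first-listed column, −0.057 for the other). Above about 100 reads the rounding leaves a read or more open. The median peak held 72 reads in each group. In reads simulated with counting error alone (Poisson) over 25514 peaks, peaks of up to 100 reads were recovered exactly in 100% of cases. Intervals held the true value in 97.5% of changed peaks. The simulation had no duplicates and no spread between libraries, as the intervals assume, so it does not show their coverage in the real reads. PCR reads are not independent molecules.

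Reads of a gene's peaks were summed. Members and lists were chosen with earlier results of these data known. All members were named, and of each list group the highest and lowest gene with at least 50 reads. A rule for genes with a start peak like that of DTL named none, since the annotation gives DTL no peak within 1 kb of a start. Motifs and assignment by position (any peak on the RefSeq gene or the 1 kb before it) were chosen after seeing the data. Alternatives covered scaling, thresholds, signal and peak assignment. Python 3.11.15, pandas 2.3.3 and scipy 1.17.1 were used.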

Additional observations from a re-analysis of the deposited data

How the results depend on the processing

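With 1 value per group, leaving out a library was not possible. No paired analysis was possible because the columns hold no separate libraries. The count of 0 member peaks past a log2 fold change of 1 was 1 with equal reads in peaks (DTL) and 2 at a limit of 1.5 fold. By the authors' deposited table, 1 peak had an unadjusted p below 0.05 and 0 below 0.01, and none had an adjusted p below 0.1. The median over member peaks, 0.12, was 0.0059 with equal reads in peaks. The median over member genes, 0.10, was −0.011 with equal reads in peaks, −0.017 with promoter peaks alone and −0.017 minus the regional median. The listed genes below 0, 19 of 47, were 11 of 32 when peaks below the median signal were dropped, which leaves fewer genes. The scaling values follow from the constant subtracted. For the other settings the cause was not tested. Of 70 single gene ratios under alternatives, 26 equal the reported value, most because the setting removes or adds no peak of that gene, and say nothing of stability. Of the other 44, 41 stayed within the gene's counting interval. DTL with promoter peaks alone (−0.94), PCNA by position (0.01) and FZR1 with equal reads in peaks (0.07) did not. The scaling settings shift every ratio by a fixed amount, and halving the reads keeps a ratio nearly the same. Those values are no evidence of stability either.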

Other observations

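Peaks of neighbouring genes within 50 kb gave further values around the members. All 6 neighbouring peaks at CUL4A, on PCID2 and LAMP1, were above 0, beside 58.2% of all peaks. They ran from 0.09 to 0.53, with a median of 0.29 by the authors' deposited table. Above 0 were also 0 of 1 at DTL, 1 of 2 at DDB1, 2 of 4 at PCNA and 2 of 2 at SKP2. At CUL1 1 of 2 was above 0, at SKP1 3 of 5 and at FZR1 5 of 7. At FZR1 the 7 neighbouring peaks had fold changes from −0.30, in an exon of NFIC, to 0.85 at a promoter of MFSD12 (205 and 118 reads, interval 0.52 to 1.19), both by the authors' deposited table. Around DTL the shared INTS7 promoter peak was the only one within 50 kb, and RBX1 and CUL4B had none. These neighbours were chosen by distance alone and received no test.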
